A study of Cloeon viridulum with 15 samples.

Results

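Chitin synthase is the membrane enzyme that joins N-acetylglucosamine, taken from the activated sugar UDP-N-acetylglucosamine, into chitin. Insects use chitin in the cuticle that the epidermis lays down at each moult, in the tracheae, and in the peritrophic matrix that lines the midgut. Many insects carry a class A enzyme, used mainly in epidermis and trachea, and a class B enzyme, used mainly in the midgut. The mayfly Cloeon viridulum is of interest for this enzyme because its winged subimago moults once more to the winged imago, so that cuticle is made again after flight is gained.

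The values below describe 2 assembled sequences (unigenes), 13_Contig_2861 and 13_Contig_3176, out of 91881 in the deposited table. Both are annotated as chitin synthase, as are 17 other unigenes, and no threshold on measured values was used to choose them, although earlier results of these data were known. 13_Contig_2861 is 4101 bp long and has its best protein hit in the squash bug Anasa tristis. 13_Contig_3176 is 1093 bp long and has its best hit in the monarch butterfly Danaus plexippus. The table gives neither a class nor a sequence for them, so whether they are different genes, or pieces of 1 gene, is not known. Both names rest on the best hit only.

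RNA of whole mayflies was sequenced at 4 stages and in a mixture of them, with 3 libraries in each of the 5 groups. A young larva library pooled 10 field-collected larvae whose sex is not given. A mature larva, subimago or imago library pooled 3 males and 3 females reared indoors from young larvae. A mixture library pooled 5 young larvae with 2 mature larvae, 2 subimagoes and 2 imagoes, a male and a female of each later stage. Rearing was at 22 ± 1 °C under 16 h of light a day, and no group received a treatment. In every comparison with the young larvae, stage cannot be told apart from origin or from the make-up of the pools. Exact ages and the time since the last moult are not given, and chitin synthase levels can change within a moult cycle.

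Libraries held 36550269 to 74837923 reads. Mature larva replicate 1 stood apart, with reads on 75863 unigenes against 46421 and 47983 in the other mature larva libraries. It was also the deepest library, with 74837923 reads against 46976259 and 49983472 in those libraries. Reads on unigenes whose best hit is a protist or a fungus made up 1.74% to 8.00% of the total in the young larvae, 2.45% in mature larva replicate 1 and 0.193% to 0.488% elsewhere. The lowest young larva share was that of replicate 2. Because whole bodies were used, fewer cells of a type and less RNA per cell cannot be told apart.

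Both chitin synthases were lowest in the imago, and of the 3 successive steps the one from subimago to imago was their largest change. 13_Contig_3176 was highest in the subimago. 13_Contig_2861 had its highest mean there too, but it was not called against the young larva (adjusted p = 0.314) and the sign of that difference turned under 2 of 25 other settings. 13_Contig_2861 also fell from the young to the mature larva, a step at which 13_Contig_3176 was not called. Levels are RPKM (reads relative to the length of the unigene and the depth of the library), divided by edgeR's TMM factor of the library (scaled RPKM). They are per length, so the unigenes can be set beside each other.

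13_Contig_2861 stood at 21.3, 24.2 and 26.7 scaled RPKM in the young larva libraries (24.1 ± 2.70, SD, n = 3) and at 10.9, 13.5 and 12.9 in the mature larvae (12.4 ± 1.39, SD, n = 3). It stood at 39.01, 24.6 and 23.3 in the subimagoes (29.0 ± 8.73, SD, n = 3) and at 1.01, 1.58 and 1.14 in the imagoes (1.24 ± 0.299, SD, n = 3). The imago libraries lay below every other library and the mature larva libraries came next, without overlap with either neighbouring stage. The young larva and subimago libraries overlapped, and the highest value was that of subimago replicate 1. In order, the subimago level was not called against the young larva, and each further step down was called. The mixture libraries lay between the mature and the young larvae, at 17.5, 20.5 and 14.3. Behind these levels stood 15894, 7508, 15916 and 764 reads over the young larva, mature larva, subimago and imago libraries.

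13_Contig_3176 stood at 32.9, 44.3 and 41.3 scaled RPKM in the young larvae (39.5 ± 5.89, SD, n = 3) and at 26.8, 58.4 and 40.4 in the mature larvae (41.9 ± 15.9, SD, n = 3). It stood at 159.5, 105.3 and 109.8 in the subimagoes (124.9 ± 30.04, SD, n = 3) and at 4.07, 4.65 and 4.04 in the imagoes (4.26 ± 0.343, SD, n = 3). The subimago libraries lay above all other libraries of the 4 stages and the imago libraries below all of them. The young and mature larvae overlapped, and the mature larvae were the most spread. The mixture libraries held 79.2, 93.2 and 59.3 scaled RPKM, above every larval library and below every subimago library. The reads behind these levels numbered 7009, 6152, 18169 and 701 over the stages in the same order.

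**Figure D1:**
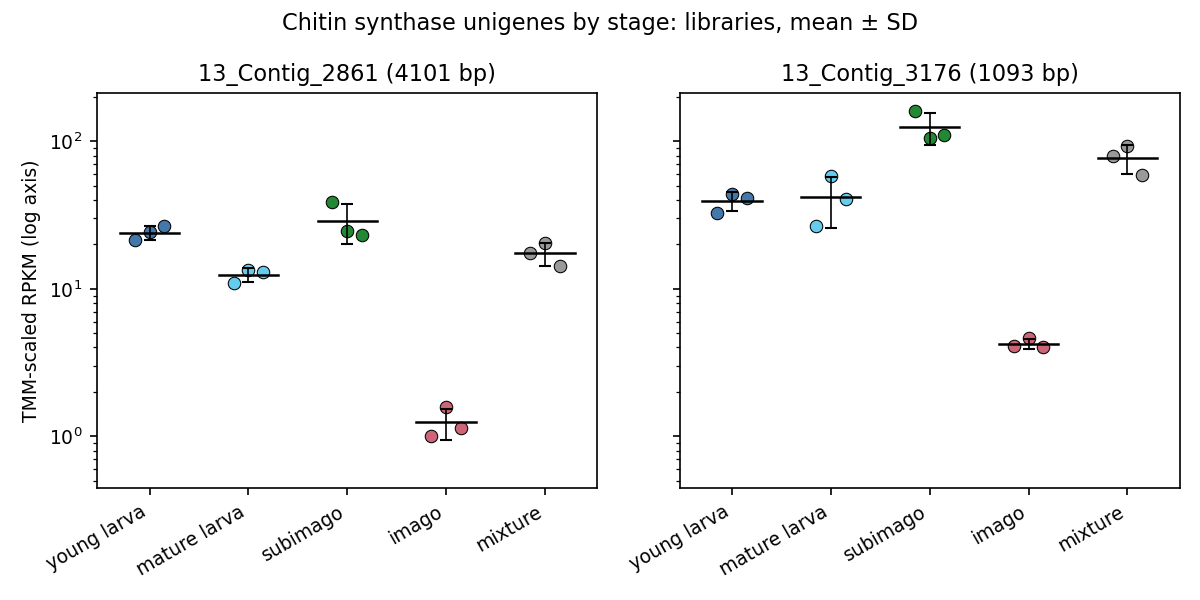
Levels of 13_Contig_2861 and 13_Contig_3176 in TMM-scaled RPKM (log axis) for each stage and the mixture, with points for libraries and bars for mean ± SD over 3. Both unigenes are lowest in the imago (means 1.24 and 4.26), 13_Contig_3176 is highest in the subimago (124.9), and the subimago and young larva libraries of 13_Contig_2861 overlap (29.0 and 24.1).

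The step from subimago to imago, the moult that mayflies alone among living insects make with working wings, brought the largest fall. 13_Contig_2861 was 23.3-fold lower in the mean of the imagoes and fell by 4.54 ± 0.26 on the log2 scale (SE, adjusted p = 5.66e-06, edgeR's quasi-likelihood test with Benjamini-Hochberg adjustment). 13_Contig_3176 was 29.3-fold lower and fell by 4.87 ± 0.31 (adjusted p = 5.66e-06). No imago library reached a level found in any subimago library. Of all 34131 unigenes tested, 9.26% were called lower, 6.74% higher and 16.0% in either direction at this step, with a median log2 change of -0.02. The summed level of the 51 epidermis and cuticle marker unigenes ran from 5736 to 11387 scaled RPKM in the subimago libraries and from 115.0 to 146.0 in the imago libraries. Their part in the fall of the chitin synthases was not tested.

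The step from mature larva to subimago was the rise before it. 13_Contig_2861 rose by 1.22 ± 0.22 on the log2 scale (adjusted p = 0.00595), a ratio of means of 2.33. 13_Contig_3176 rose by 1.58 ± 0.27 (adjusted p = 0.00421), a ratio of means of 2.98. All 3 subimago libraries lay above all 3 mature larva libraries for both. Of all unigenes tested, 8.98% were called higher, 14.2% lower and 23.1% in either direction, with a median log2 change of -0.28. Without mature larva replicate 1 and young larva replicate 2, the libraries that stood apart, the rises were 1.13 and 1.34 on the log2 scale, and both were called. The summed epidermis and cuticle markers were 861.0 to 1663 scaled RPKM in the mature larvae, below every subimago library, and their part in these rises was not tested.

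From young to mature larva the chitin synthases parted. 13_Contig_2861 fell by 0.96 ± 0.22 on the log2 scale (adjusted p = 0.00479), a ratio of means of 1.93, and its larval libraries did not overlap. 13_Contig_3176 had a log2 difference of 0.08 ± 0.26 (adjusted p = 0.824) and was not called, and its sign turned under 9 of 25 other settings. At this step 9.73% of all unigenes tested were called lower, 25.3% higher and 35.1% in either direction, with a median log2 change of -0.05. Without mature larva replicate 1 and young larva replicate 2, 13_Contig_2861 still fell, by 0.85, and 13_Contig_3176 had a difference of 0.42 that was not called (adjusted p = 0.190). The summed epidermis and cuticle markers were 3331 to 3824 scaled RPKM in the young larvae, above every mature larva library, which follows the direction of 13_Contig_2861. Their part in its fall was not tested. The young larvae were field-collected and the mature larvae reared indoors, so origin and stage cannot be told apart at this step.

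Over a longer span, 13_Contig_3176 was higher in the subimago than in the young larva, by 1.66 ± 0.27 on the log2 scale (adjusted p = 0.000225, ratio of means 3.16), in a comparison where 29.7% of all unigenes were called higher, 35.7% lower and 65.4% in either direction. 13_Contig_2861 had a difference of 0.26 ± 0.22 (adjusted p = 0.314), and the libraries of the stages overlapped. The imago lay below the young larva in both. There 13_Contig_2861 fell by 4.28 ± 0.25 (adjusted p = 2.49e-08, ratio of means 19.3) and 13_Contig_3176 fell by 3.22 ± 0.29 (adjusted p = 9.37e-07, ratio of means 9.28), while 41.5% of all unigenes were called lower, 28.8% higher and 70.4% in either direction. Against the mature larva the imago fell by 3.32 ± 0.24 in 13_Contig_2861 (adjusted p = 6.01e-06) and by 3.30 ± 0.29 in 13_Contig_3176 (adjusted p = 2.01e-05), with 27.0% of all unigenes called lower, 16.5% higher and 43.5% in either direction. These comparisons share their libraries with the steps above and are not independent of them.

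The ratio of the chitin synthases to each other compares their patterns within a library and needs no scaling between libraries. The RPKM of 13_Contig_3176 over that of 13_Contig_2861 was 1.54, 1.83 and 1.55 in the young larvae (1.64 ± 0.164, SD, n = 3). It was 2.47, 4.33 and 3.12 in the mature larvae (3.30 ± 0.942, SD, n = 3). Every young larva library lay below every library of the later stages, and mature larva replicate 2 lay among the subimagoes. In the subimagoes the ratio was 4.09, 4.29 and 4.72 (4.37 ± 0.321, SD, n = 3), in the imagoes 4.03, 2.94 and 3.55 (3.51 ± 0.544, SD, n = 3) and in the mixture 4.54, 4.54 and 4.15. The mature larva and imago ranges overlapped. The log2 ratio differed among the 4 stages (F = 17.9, exact permutation test over all 369600 arrangements of the 12 libraries, p = 0.00351, where the smallest possible p is 6.49e-05). Stage means spanned 1.41 on the log2 scale. The test covers the 4 stages together and did not set the young larva against the later stages. The ratio was lowest in the young larvae, which were also the field-collected group, so stage and origin cannot be told apart there. The log2 levels of the chitin synthases over the 12 libraries had a Pearson r of 0.951, given as a description of libraries that share their depth and stage.

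**Figure D2:**
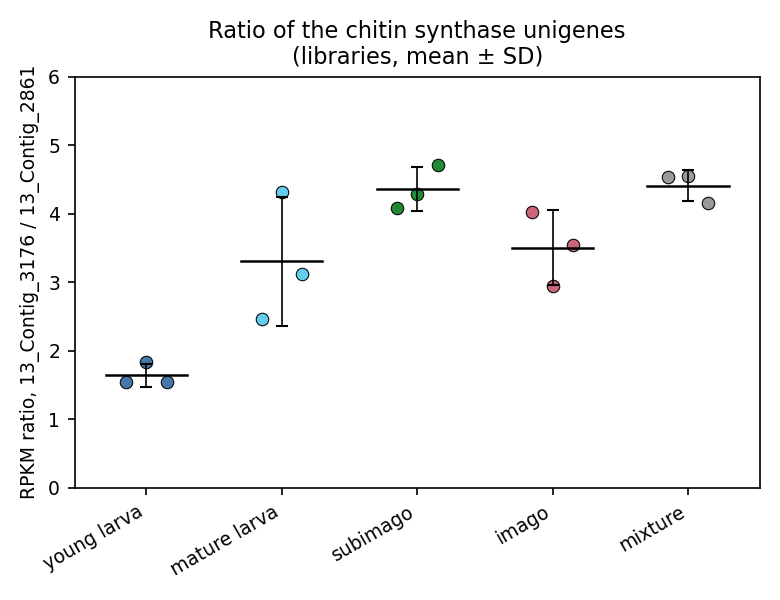
Ratio of the RPKM of 13_Contig_3176 to that of 13_Contig_2861 in each library, with mean ± SD over 3 libraries per group. The young larva libraries (1.54 to 1.83) lie below all libraries of later stages (2.47 to 4.72).

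The annotation names 19 unigenes chitin synthase in all. Of these, only 13_Contig_2861 and 13_Contig_3176 had their highest mean in the subimago. Both were chosen with earlier results of these data known, so this contrast is a description only. For 13_Contig_2861 that mean was not called against the young larva (adjusted p = 0.314). Beyond the pair above, 4 have an arthropod best hit and 13 a protist one, 12 of these from the ciliate Tetrahymena and 1 from Entamoeba. The protist-hit unigenes summed to 294, 38 and 205 reads in the young larvae and 159 in mature larva replicate 1, and to 2 to 6 reads in every other library. More reads lay on them in the libraries with a larger share of protist and fungal reads, a share that includes their own. Their source was not tested. The arthropod-hit ones had their highest means in the young larvae, and within their stage they too were highest in mature larva replicate 1 and lowest in young larva replicate 2.

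13_Contig_24561, 4435 bp long and with the same best-hit species as 13_Contig_2861, stood at 22.8, 2.58 and 21.4 scaled RPKM in the young larvae and at 7.48, 0.728 and 0.282 in the mature larvae. It stood at 0.371 to 0.484 in the subimagoes and 0.0603 to 0.1003 in the imagoes. Young larva replicate 2 lay inside the mature larva range, and no winged library reached the level of 13_Contig_24561 in young larva replicate 2. It fell by 5.25 ± 1.16 on the log2 scale from young larva to subimago (adjusted p = 0.00225). Between young and mature larva it was not called (log2 difference -2.46 ± 1.02, adjusted p = 0.0815), but it was without mature larva replicate 1 (-4.93, adjusted p = 0.000275) and without young larva replicate 2 (-2.94, adjusted p = 0.0431).

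13_Contig_11510, 831 bp long with a best hit in the house fly Musca domestica, stood at 27.8, 9.02 and 29.7 scaled RPKM in the young larvae and at 10.0, 1.48 and 1.34 in the mature larvae. Its levels were 1.01 to 1.25 in the subimagoes and 0.0460 to 0.102 in the imagoes. The larval stages overlapped through mature larva replicate 1, and the subimago and imago libraries lay apart. It fell by 4.32 ± 0.77 from young larva to subimago (adjusted p = 0.000474) and by 3.74 ± 0.81 from subimago to imago (adjusted p = 0.00833). Its fall between the larval stages (-2.37 ± 0.70, adjusted p = 0.0197) was not called without young larva replicate 1 or 3 or without mature larva replicate 2 or 3, with adjusted p of 0.0570 to 0.0782. 13_Contig_28857 (2750 bp) and 13_Contig_29677 (670 bp) reached at most 3.74 and 1.67 scaled RPKM, with their highest values in the young larvae, and both fell from young larva to subimago (adjusted p = 0.00872 and 0.00886).

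**Figure D3:**
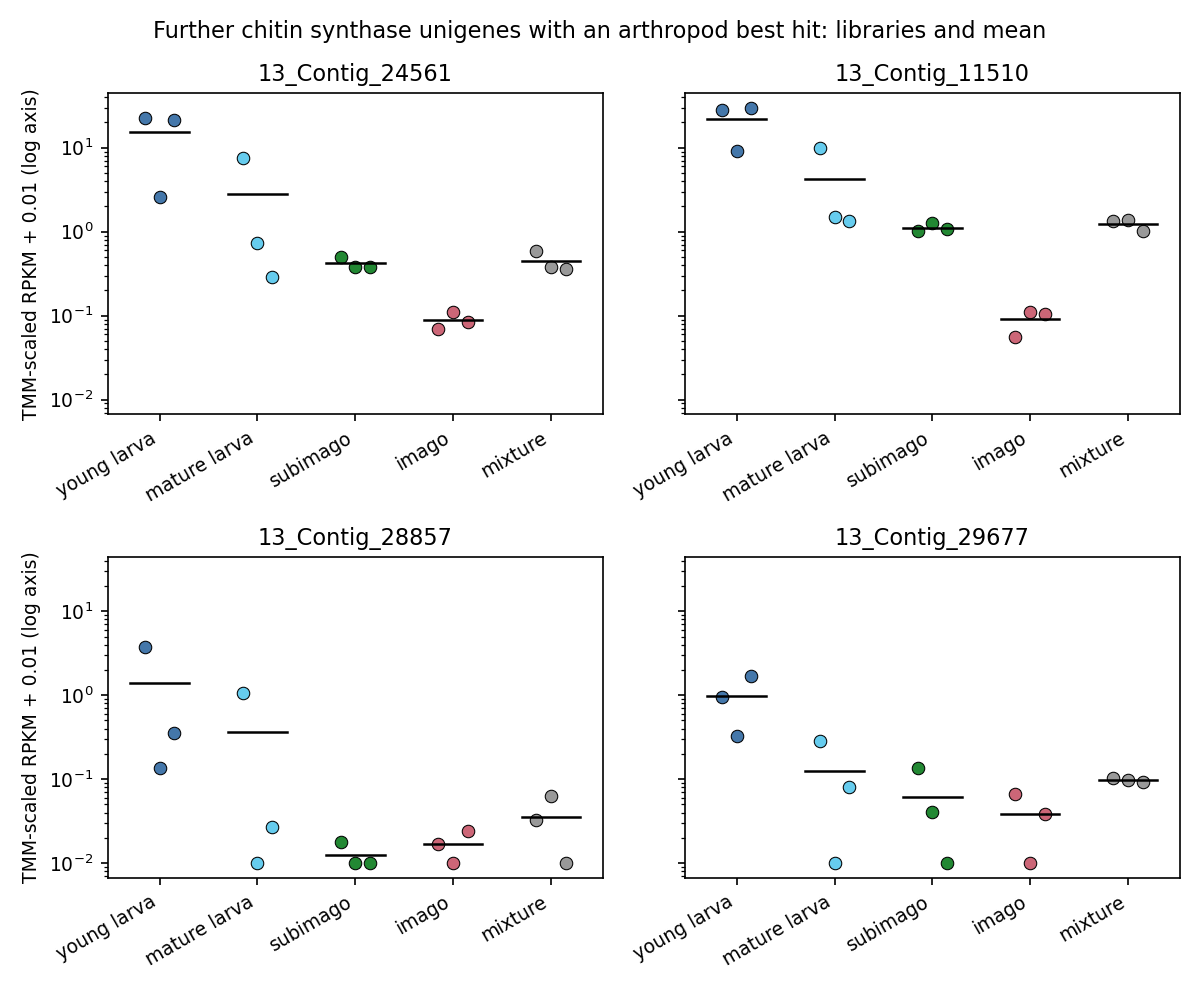
Levels of the 4 further chitin synthase unigenes with an arthropod best hit, as TMM-scaled RPKM + 0.01 on a log axis, with points for libraries and bars for means over 3. 13_Contig_24561 and 13_Contig_11510 have their highest means in the young larvae and their lowest in the imagoes, with mature larva replicate 1 (7.48 and 10.0) above the other mature larva libraries.

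13_Contig_2861 and 13_Contig_3176 together held 98.7% to 99.2% of the summed deposited RPKM of the 6 arthropod-hit chitin synthases in the subimagoes and 96.1% to 96.9% in the imagoes. In the young larvae they held 49.5%, 85.0% and 56.2%, and in the mature larvae 66.7%, 97.0% and 96.9%. Such shares count 1 gene more than once if the pair are pieces of it. The share was lowest in young larva replicates 1 and 3 and mature larva replicate 1. The midgut and peritrophic matrix markers, 114 unigenes that include peritrophins and trypsins, were high in those same libraries. They summed to 8782, 2473 and 9341 scaled RPKM in the young larvae and to 3228, 1100 and 460.9 in the mature larvae. They summed to 1216 to 1733 in the subimagoes and 188.9 to 288.9 in the imagoes, where 16 of the 114 were at 0 in all 3 libraries. The part of the midgut in these chitin synthase levels was not tested. Of the 51 epidermis and cuticle markers, 35 to 43 had reads in each stage library and 8 were at 0 in all imago libraries. The 4 ovary markers summed to 6.62 to 8.62 in the young larvae and to 677.6 to 738.8 in the imagoes, where both chitin synthases were lowest.

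**Figure D4:**
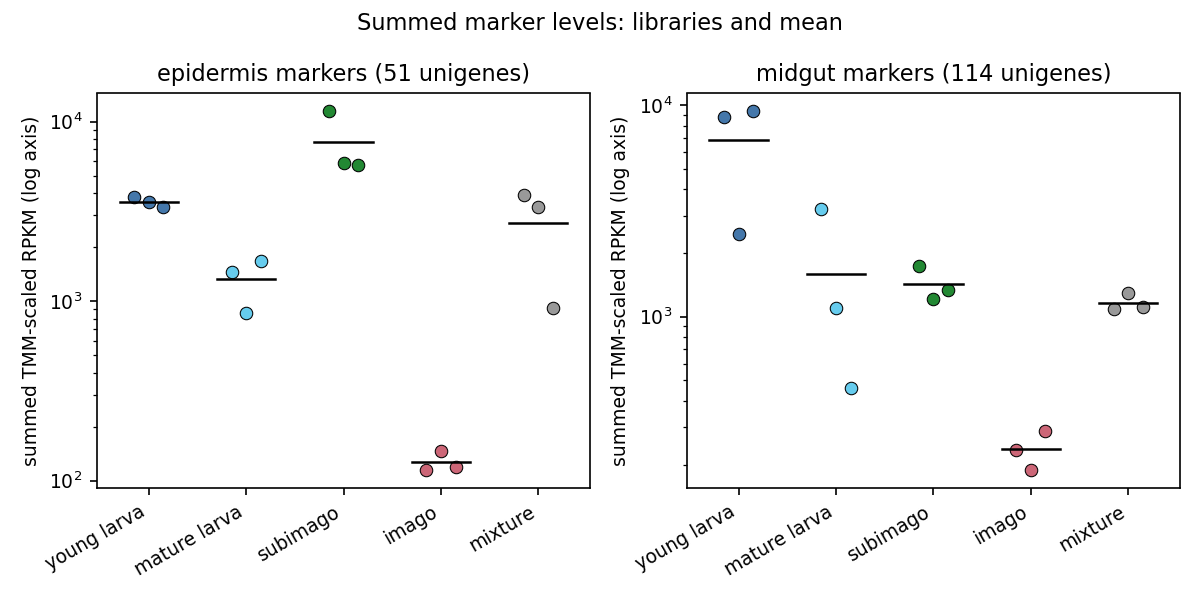
Summed TMM-scaled RPKM (log axis) of 51 epidermis and cuticle marker unigenes and of 114 midgut and peritrophic matrix marker unigenes, with points for libraries and bars for means over 3. The epidermis sum is highest in the subimagoes (5736 to 11387) and lowest in the imagoes (115.0 to 146.0), while the midgut sum is highest in young larva replicates 1 and 3.

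The route that makes the substrate of chitin synthase starts from the blood sugar trehalose and ends at UDP-N-acetylglucosamine. It had 12 arthropod-hit unigenes, of which 6 passed the filter on low counts. From mature larva to subimago 3 of the 6 rose and 0 fell (median log2 change 0.38), where 8.98% of all unigenes tested rose and 14.2% fell. At the moult to the imago 1 rose and 2 fell (median 0.04), against 6.74% and 9.26% of all. From young to mature larva 1 rose and 3 fell (median -0.32), against 25.3% and 9.73% of all. With only the libraries of the compared stages in the fit, 0 of 6 were called from mature larva to subimago and 2 from young to mature larva, and without subimago replicate 1 the former count was 1. Without mature larva replicate 3 the latter was 2.

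Glutamine-fructose-6-phosphate aminotransferase (GFAT) makes glucosamine-6-phosphate and is widely held to limit the route. Its unigene 13_Contig_1672 stood at 46.5, 47.6 and 73.4 scaled RPKM in the young larvae and 23.8, 36.3 and 6.81 in the mature larvae. It stood at 137.7, 96.1 and 107.7 in the subimagoes and 1.68, 1.71 and 1.28 in the imagoes. Its subimago libraries were the highest and its imago libraries the lowest, with no overlap between any of the stages, whereas each chitin synthase had a pair of stages that overlapped. It rose by 2.35 ± 0.48 on the log2 scale to the subimago (adjusted p = 0.0101, or 0.0708 with only the compared stages in the fit) and fell by 6.19 ± 0.57 to the imago (adjusted p = 5.56e-05). Its fall from young to mature larva (-1.33 ± 0.47, adjusted p = 0.0434) was lost under 15 of 25 other settings. These were all settings that leave out a library except those without mature larva replicate 1 or 2, with adjusted p up to 0.155, and 2 more. A further GFAT unigene, 13_Contig_9275, named here after its values were seen, fell by 2.10 ± 0.47 between the larval stages (adjusted p = 0.00370). It rose by 1.65 ± 0.46 to the subimago (adjusted p = 0.0297), a call lost without mature larva replicate 2, without any of the subimago replicates or without mixture replicate 3 (adjusted p = 0.0527 to 0.0956). At the last moult it fell by 5.14 ± 0.54 (adjusted p = 9.58e-05).

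The enzyme that makes the substrate itself, UDP-N-acetylglucosamine pyrophosphorylase (13_Contig_1928), was not called at the last moult, where the chitin synthases fell. It stood at 14.0, 13.1 and 15.8 scaled RPKM in the young larvae, 19.8, 22.0 and 24.8 in the mature larvae, 32.3, 29.2 and 31.7 in the subimagoes and 28.9, 29.3 and 29.99 in the imagoes. It rose by 0.63 ± 0.11 between the larval stages (adjusted p = 0.000542) and had a log2 difference of -0.08 ± 0.11 at the last moult (adjusted p = 0.759), which with TMM on arthropod hits was -0.26 and called lower (adjusted p = 0.0414). It rose by 0.49 ± 0.11 to the subimago (adjusted p = 0.0135), which was not called without mature larva replicate 1 (adjusted p = 0.0535) or without subimago replicate 1 (adjusted p = 0.0512). Scaling by library totals alone took the larval rise to 0.10 (adjusted p = 0.698), and with only the compared stages in the fit neither rise was called (adjusted p = 0.0741 and 0.0540).

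The enzymes shared with glycolysis moved by at most 0.54 on the log2 scale at any successive step, and by more over longer spans. Glucose-6-phosphate isomerase (13_Contig_6937) fell by 0.54 ± 0.13 from young to mature larva (adjusted p = 0.00702, or 0.0600 without mature larva replicate 3) and was not called at later moults. From young larva to subimago its log2 difference was -0.67 (adjusted p = 0.00117). Hexokinase (13_Contig_2376) had log2 differences of 0.24 ± 0.10 and 0.20 ± 0.10 at the first steps, neither called, though the first was on leaving out young larva replicate 3, mature larva replicate 1 or mixture replicate 1 or 2 (adjusted p = 0.0430 to 0.0480). Its rise of 0.32 ± 0.10 to the imago lay at the threshold (adjusted p = 0.049998) and was lost under most other settings. From young larva to imago hexokinase had a log2 difference of 0.75 (adjusted p = 3.77e-05). Trehalase (First_Contig221), which splits trehalose, was called at no successive step, with differences of -0.10, 0.27 and 0.52, although the last was called under 9 of 25 other settings (adjusted p = 0.00193 to 0.0363). These include DESeq2 and leaving out young larva replicate 2, mature larva replicate 2 or mixture replicate 3. With library totals alone its larval difference was -0.62 and called (adjusted p = 0.0420). It stood at 20.7 to 22.4 scaled RPKM in the imagoes, and its log2 difference from mature larva to imago was 0.79 (adjusted p = 0.00398). Phosphoacetylglucosamine mutase (13_Contig_108467) was under 0.366 in every library and was not tested.

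**Figure D5:**
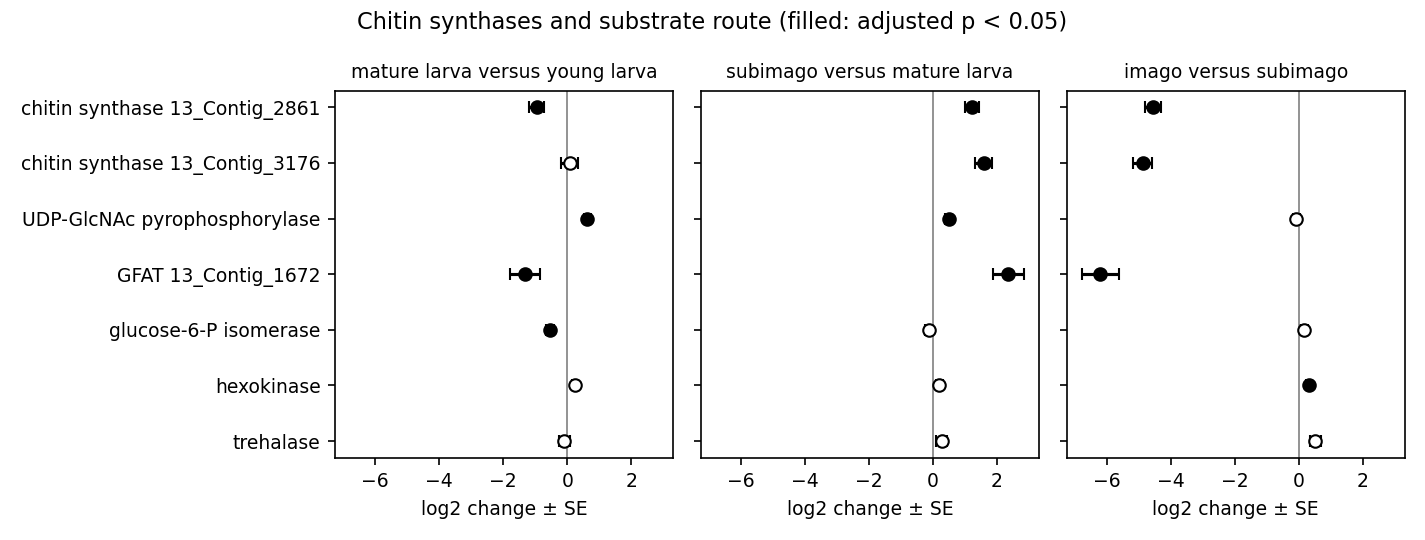
log2 changes ± SE at the 3 successive stage steps for both chitin synthases and for each tested route enzyme. Each route enzyme is shown by its unigene of highest mean level. UDP-GlcNAc stands for UDP-N-acetylglucosamine, GFAT for glutamine-fructose-6-phosphate aminotransferase. Filled points mark an adjusted p under 0.05. At the last step the chitin synthases and GFAT have differences of -6.19 to -4.54, while UDP-N-acetylglucosamine pyrophosphorylase has a difference of -0.08.

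Proteins that arrange or break down chitin comprised 38 arthropod-hit unigenes, all named chitinase, chitotriosidase, imaginal disc growth factor or hexosaminidase, of which 25 were tested. From young to mature larva 5 rose and 4 fell (median log2 change -0.78), a count near the 35.1% called among all unigenes tested. From mature larva to subimago 2 rose and 8 fell (median -2.17), where 8.98% of all rose and 14.2% fell. From subimago to imago 3 rose and 4 fell (median -0.41), where 6.74% of all rose and 9.26% fell. At the larval step the count of falls was 10 of 27 tested without mature larva replicate 1, but 1 without replicate 2 and 0 without replicate 3. From mature larva to subimago the falls numbered 3 without subimago replicate 2 or 3, and 4 without subimago replicate 1, mature larva replicate 1 or imago replicate 1 or 3. At the last step 1 rose and 3 fell without subimago replicate 1 or 2 or without imago replicate 1 or 3.

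The most abundant of 22 chitinases, the most abundant of 14 hexosaminidases and the chitotriosidase had their highest stage means in the larvae. They do not stand for every member, since another chitinase, 13_Contig_1449, had a pattern close to that of 13_Contig_3176 (Pearson r = 0.988). Chitinase 13_Contig_3880, which cuts chitin, stood at 2.71, 171.4 and 76.3 scaled RPKM in the young larvae, 125.4, 136.3 and 16.7 in the mature larvae, 9.86, 3.99 and 5.25 in the subimagoes and 4.33, 5.74 and 4.14 in the imagoes. Its larval libraries were widely spread and no successive step was called (adjusted p = 0.934, 0.0646 and 0.942), although its fall to the subimago was called without young larva replicate 1, mature larva replicate 3 or mixture replicate 3 (adjusted p = 0.0425 to 0.0437). Beta-hexosaminidase 13_Contig_21195, of a family that frees single sugars from chitin fragments, had means of 62.8 ± 20.5, 33.9 ± 14.3, 6.05 ± 3.91 and 0.865 ± 0.241 in stage order (SD, n = 3). From young larva to imago it fell by 6.18 ± 0.96 (adjusted p = 0.000154), and its falls at the last 2 steps (adjusted p = 0.0458 and 0.0384) were not called under most settings that leave out a library. Chitotriosidase 13_Contig_24125 stood at 44.9, 7.51 and 34.4 in the young larvae and 15.5 in mature larva replicate 1, and at 0 to 0.913 in every other library. Imaginal disc growth factor 13_Contig_13312 was under 0.290 in all 12 stage libraries, with its highest mean in the subimagoes (0.126 ± 0.142, SD, n = 3).

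Moulting hormone response genes give the endocrine setting, since ecdysteroids time cuticle formation in insects. Broad-complex 13_Contig_5238, a transcription factor that in many insects marks the change out of the larva, rose by 1.68 ± 0.14 from young to mature larva (adjusted p = 9.42e-07), from 49.9 ± 2.23 to 160.2 ± 22.5 scaled RPKM (SD, n = 3). It rose by a further 0.60 ± 0.14 to the subimago (adjusted p = 0.0150), which was not called without mature larva replicate 1 (adjusted p = 0.0523) or subimago replicate 2 (adjusted p = 0.0626). Its levels were 212.6 to 262.5 in the subimagoes and 254.3 to 259.8 in the imagoes, where the chitin synthases were lowest. The nuclear receptor HR3 (13_Contig_1820) fell by 3.23 ± 0.57 from subimago to imago (adjusted p = 0.00250), from 67.0 ± 9.62 to 7.13 ± 0.895, and its larval libraries ranged from 47.0 to 260.0. The nuclear receptor FTZ-F1 (13_Contig_7794), which in Drosophila acts late in a moult cycle, stood at 23.3 and 17.6 in mature larva replicates 1 and 2 and at 226.5 in replicate 3. It rose between the larval stages (2.48 ± 0.78, adjusted p = 0.0265) but not without mature larva replicate 3 (0.41, adjusted p = 0.356), young larva replicate 2 (adjusted p = 0.0767) or young larva replicate 3 (adjusted p = 0.0999). Without mature larva replicate 3 it rose from mature larva to subimago (1.92, adjusted p = 0.00319), a step not called with that library. From subimago to imago its log2 difference was -1.84 with or without that library. This difference was not called with all libraries in the fit (adjusted p = 0.134). It was called without mature larva replicate 3 (adjusted p = 0.00109) and with only the compared stages in the fit (-1.85, adjusted p = 0.000653). In mature larva replicate 3 the chitin synthases stood at 12.9 and 40.4, inside the range of the other mature larva libraries. E75 (13_Contig_1952), a nuclear receptor induced by ecdysteroids, was called at no successive step with all libraries in the fit. Without mature larva replicate 3 its fall of 0.49 to the subimago was called (adjusted p = 0.0385). That fall was also called with TMM on arthropod hits (adjusted p = 0.0389) and with the stricter filter (adjusted p = 0.0312). With only the compared stages in the fit, its rise of 0.23 to the imago was called (adjusted p = 0.0182).

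The unigenes whose pattern was most like each chitin synthase were ranked by Pearson r in log2 levels over the 12 stage libraries, among 7618 with an arthropod best hit and a named protein. Such r values describe libraries that share stage and depth. For 13_Contig_2861 the closest were the spt20-like transcription factor 13_Contig_6450 (r = 0.985), the Shaven transcription factor 13_Contig_20917 (r = 0.984) and a dual oxidase, 13_Contig_6578 (r = 0.983), an enzyme that makes hydrogen peroxide. They were followed by homeodomain-interacting protein kinase 2 (13_Contig_5945, r = 0.983), Techylectin-5B (13_Contig_2453, r = 0.982), a chitin-binding peritrophin-A (13_Contig_129, r = 0.979), a cuticular protein (13_Contig_4884, r = 0.979) and a DOMON domain protein (First_Contig440, r = 0.977).

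For 13_Contig_3176 the closest was chitinase 3 (13_Contig_1449, r = 0.988), then a fatty acyl-CoA reductase (13_Contig_6103, r = 0.986), whose family makes the alcohols of surface waxes, and the adult-specific cuticular protein ACP-20 (13_Contig_25170, r = 0.984). The others were AAEL013537-PB (13_Contig_1953, r = 0.984), GA22200 (13_Contig_11136, r = 0.979), metabotropic glutamate receptor 2 (13_Contig_203, r = 0.978), the cuticular protein CPR67Bc (13_Contig_1589, r = 0.977) and nose resistant to fluoxetine protein 6 (13_Contig_3126, r = 0.976). The lists of 8 shared 0 unigenes. Without mature larva replicate 1, 8 and 7 of them remained, and over all 15 libraries 5 and 4.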

How the data were processed

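Per the labels' protocols, 1 µg of RNA per library was made into a TruSeq library and read as 125 bp pairs, cleaned reads were assembled de novo in CLC Genomics Workbench, then CAP3, and the submitters' processing notes name DESeq. For the mapper, counting and strand, settings are not given in the sources. The deposited table holds raw read counts per unigene and RPKM, per the file headers. Recomputing RPKM from the counts, unigene length and library total gave the deposited values (largest relative difference 3.42e-07). Of 91881 unigenes 31014 have a protein hit. No chromosome positions or sequences were used, and reads may be split between similar unigenes.

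Counts were tested with edgeR 4.0.16 (glmQLFit and glmQLFTest, robust), limma 3.58.1 and R 4.3.3, with TMM scaling (factors 0.639 to 1.39), the filterByExpr filter (34131 unigenes, 11938 with an arthropod hit) and all 15 libraries in 1 fit without a replicate block. A unigene was called at a Benjamini-Hochberg adjusted p under 0.05, and changes are given ± SE. Scaled RPKM is the deposited RPKM divided by the TMM factor. The ratio test added 0.01 to each RPKM. The fit was tested on simulated data, in which it missed most of the smaller changes. A difference that was not called may still be present. DESeq2 1.42.0, other scalings and filters, other sets of libraries, and leaving out each library were tried as alternatives, and leaving out both libraries that stood apart was added after the data were seen. The 3 libraries of a group are biological replicates per the labels, each a pool of animals. Totals of 36550269 to 74837923 reads set the counting precision, while each test measures the spread among these pools.

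The chitin synthases, gene lists and markers were chosen with earlier results of these data known. Lists were formed by words in the best-hit name, arthropod hits only. For each kind of protein in the substrate route and in chitin turnover, the unigene with the highest mean RPKM over the 12 stage libraries was named, as were the 4 highest of the moulting hormone response and the 8 most like each chitin synthase by Pearson r (log2 CPM, prior count 2).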

Additional observations from a re-analysis of the deposited data

How the results depend on the processing

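All 10 called changes of the chitin synthases kept direction and call under all 25 alternatives each (250 in all). The differences not called turned sign. For 13_Contig_3176 between the larval stages the log2 difference was -0.11 with DESeq2 size factors, -0.55 with library totals, -0.16 with TMM on arthropod hits, -0.20 with the stricter filter, -0.11 with the DESeq2 test, -0.056 with only the compared groups, -0.093 without the mixture, and -0.29 to 0.35 on leaving out a library. For 13_Contig_2861 between subimago and young larva it was -0.0887 with TMM on arthropod hits and -0.0880 with the stricter filter. Labels number the replicates 1 to 3 in each group. Most same-numbered libraries did not deviate together, with r over 0.1 in 3 of 30 pairs (-0.247 to 0.572, median -0.00385). Of 15 libraries, 5 correlated best with their own number. A replicate block changed no call of 13_Contig_2861 or 13_Contig_3176, but 13_Contig_24561 was then called between the larval stages (-2.89, adjusted p = 0.0482) and 13_Contig_28857 no longer between mature larva and imago (adjusted p = 0.0828, against 0.0494), and the ratio test gave an exact permutation p of 0.0174 with the block, 0.0106 without both libraries that stood apart and 0.000909 to 0.0089 on leaving out a library, its span of stage means then running from 1.36 to 1.495.

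The number of unigenes called changed more. From young to mature larva it was 11974, 7772 with only the compared groups, 21304 without both libraries that stood apart, 19551 without mature larva replicate 1 and 9713 at least on leaving out a library. From mature larva to subimago it was 7897, 3290 without a filter, 12133 with DESeq2, 3920 with the compared groups, 3346 without both, and 1850 (subimago replicate 2), 2118 (subimago replicate 3), 3069 (subimago replicate 1), 3090 (mature larva replicate 1), 5242 and 5231 (imago replicates 1 and 3) up to 10808 on leaving out a library. From subimago to imago it was 5461, 8944 with the compared groups, and 3010 (subimago replicate 1) to 5916, with 3532 and 3227 without imago replicates 2 and 3 and a count between 3010 and 3227 without imago replicate 1. From mature larva to imago it was 14854, with 9250 and 9826 without imago replicates 1 and 3 and 16021 at most.

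The route list gave 2 calls at the larval step and 0 at the next with the compared groups alone (2 to 5 and 1 to 3 on leaving out a library). With all best hits it gave 7 from mature larva to subimago, 11 from young larva to subimago, 14 from young larva to imago and 9 from mature larva to imago. The turnover list gave 15 without both libraries, 3 with 1 unigene per annotation and 5 to 15 on leaving out a library at the larval step. From mature larva to subimago it gave 5 without a filter, 16 with DESeq2, 5 with 1 unigene per annotation and 4 to 14 on leaving out a library, and at the last step 4 and 4 to 8. With 1 unigene per annotation it gave 7 from young larva to subimago, to imago, and from mature larva to imago, and for the last 10 without a filter and 10 to 18 on leaving out a library. The cause of these shifts was not tested.

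Other scalings moved the median of all unigenes by -0.52 (library totals, larval step) up to 0.42 (library totals, mature larva to imago), or -0.54 with arthropod TMM from young larva to imago. The share of calls that were higher went from 72.3% to 51.8% with library totals at the larval step and from 38.8% to 59.9% at the next. At the last it went from 42.1% to 54.8% (DESeq2 size factors), 52.6% (library totals) or 29.1% (arthropod TMM), and from mature larva to imago from 37.9% to 56.6% or 24.2%.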
